A study of Mus musculus with 8 samples.

Results

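Messenger RNA levels of 9 genes of mitochondrial fatty acid (FA) oxidation were compared between photoreceptor cells of Lpcat1 heterozygous (HZ) and Lpcat1 KO mice at postnatal day 8. The genes were Cpt1a, Cpt2, Acadm, Acadl, Acadvl, Hadha, Hadhb, Ppara and Etfdh, and they were taken as the probes whose RefSeq accession maps to these symbols. The array carried 12 such probes among 56605 that were not controls, and 12 of 12 were well above background on all 8 arrays. All 9 genes were therefore among the 14840 genes tested. The question behind the comparison was whether FA oxidation differed in cells that lack an enzyme consuming saturated fatty acyl-CoA.

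The data were 8 single-color Agilent arrays, 4 labelled HZ and 4 labelled KO, of total RNA from retinal cells that had been bound by an antibody to CD73, a surface marker of photoreceptor cells, and collected on magnetic beads. The mice are labelled C57BL/6 and carried a deletion of Lpcat1 in every tissue, on both alleles in KO and on a single allele in HZ, after a cross that removed homozygosity of the rd8 mutation of Crb1. All 8 arrays lay on 1 slide, with KO in slide row 1 and HZ in slide row 2, so that slide row and genotype cannot be told apart, and the replicate number was also the slide column. All 16 rod and all 10 cone markers listed were among the tested genes, so markers of the labelled cells were present. The probe for Lpcat1 itself did not separate the labels, with a normalized log2 signal of -1.17 to -0.81 in HZ and -1.16 to -0.85 in KO, so that the ranges coincided. KO minus HZ was -0.037 with a standard error of 0.11 (limma, adjusted p = 0.930), and its sign turned with normexp, without HZ replicate 1 and without KO replicate 2. Where this probe lies in relation to the deleted stretch was not determined here, and the arrays are called HZ and KO as the labels have them.

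Long-chain fatty acids enter mitochondria as carnitine esters, made by the CPT1 enzymes on the outer membrane and turned back into acyl-CoA by CPT2 on the inner membrane. Inside, acyl-CoA dehydrogenases of different chain-length preference (VLCAD, LCAD and MCAD, encoded by Acadvl, Acadl and Acadm) take the first oxidation step, and the trifunctional protein, built from the Hadha and Hadhb products, carries out the remaining steps for long chains. The electrons of the first step pass through the electron transfer flavoprotein to its dehydrogenase, encoded by Etfdh, and on to ubiquinone. PPAR-alpha, encoded by Ppara, is a nuclear receptor that binds fatty acids and switches on many of these genes. Photoreceptor cells use glucose and fatty acids as fuels, and the neighbouring retinal pigment epithelium (RPE) is known for oxidizing fatty acids.

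Values are given as normalized log2 signal, the log2 of the background-corrected intensity minus that array's 75th percentile, so that 0 is the 75th percentile and a difference of 1 is a doubling. Differences are KO minus HZ from limma, with Benjamini-Hochberg adjustment over 34280 probes. Levels of different probes are not compared with each other, because probes differ in brightness at the same RNA level. At a fold over 1.2 and an adjusted p under 0.05, 0 of 9 genes were called, with a background of 0% over all tested genes. At a fold over 1.5 and an adjusted p under 0.5, again 0 of 9 were called, against 1.46% of all tested genes. At an unadjusted p under 0.05, 2 of 9 genes passed (Ppara and Etfdh) against 9.31% of all tested genes, and 2802 of the 34280 probes did. With the replicate number as a block 1 of 9 passed, Ppara, and Etfdh did not. The count was also 1 after quantile normalization, with the percentile over the probes bright on every array and with no filter on dim probes. With normexp it was 2, but Etfdh, at 0.013 (limma adjusted p = 0.969), was not one of them. Leaving out 1 array gave 0 for HZ replicate 1 and 1 for HZ replicates 2, 3 and 4 and for KO replicates 2 and 4. The methods' t-test gave 2 genes, and called 0 of 9 after Benjamini-Hochberg adjustment.

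As a group the 9 genes lay close to 0. The KO value was above the HZ value for 7 genes and below it for 2 (Ppara and Hadhb), where 56.8% of all tested genes were higher. The sign was not settled for Cpt1a (below 0 after quantile normalization, and when the percentile was taken over the probes bright on every array), Acadvl (below 0 after quantile normalization or normexp) or Hadhb (above 0 with normexp). The median difference was 0.084, beside 0.029 over all tested genes. It was 0.035 after quantile normalization, 0.048 with normexp and 0.053 with the percentile of bright probes, and with 1 array left out it was lowest without HZ replicate 3 (0.040), KO replicate 1 (0.046) and HZ replicate 2 (0.048). In the full set of arrays the median size of a difference, regardless of sign, was 0.087 beside 0.12. The largest difference upward was 0.21, that of Etfdh, and the largest downward was -0.31, that of Ppara. These were also the only genes of the 9 whose HZ and KO arrays did not overlap, 2 of 9 where 8% of all tested genes did not overlap.

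**Figure D1:**
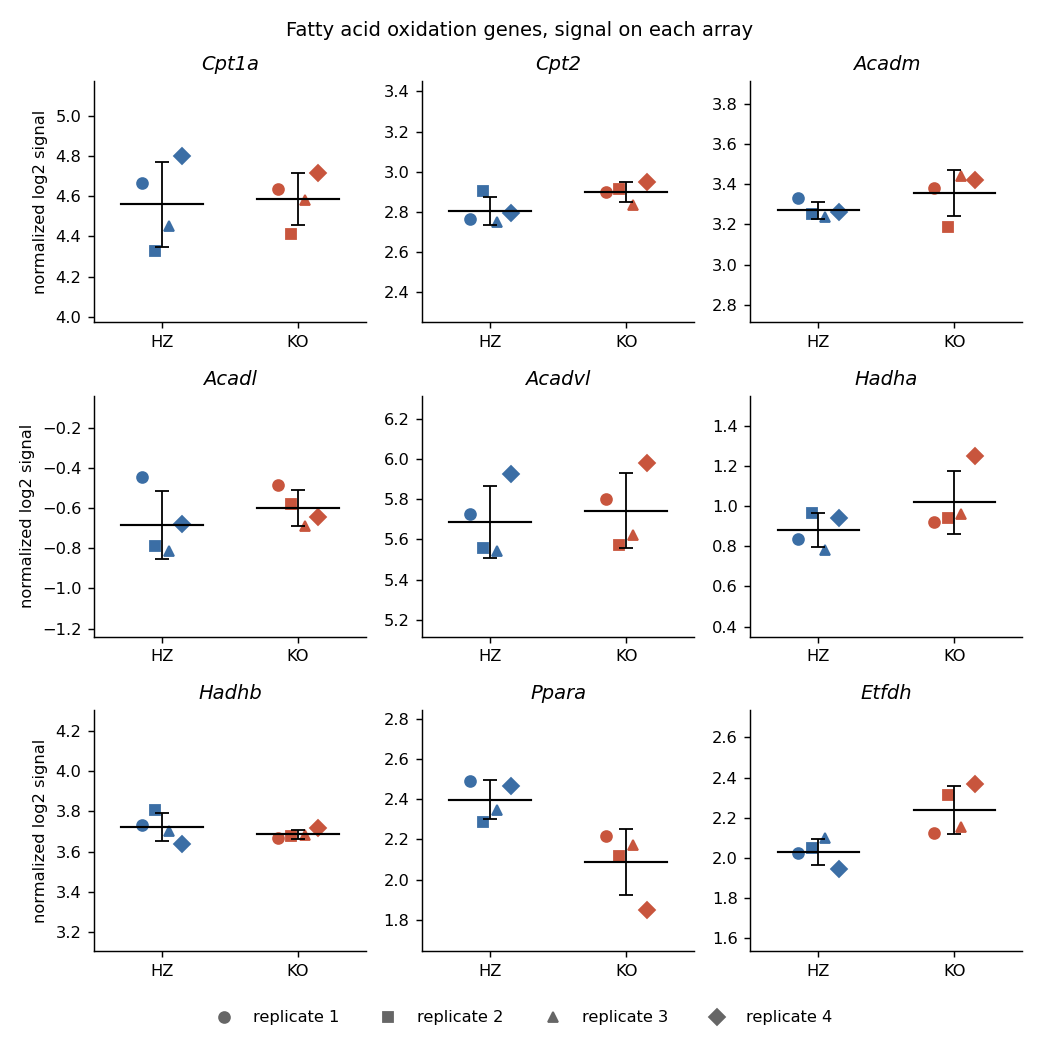
Normalized log2 signal (vertical axis, each panel spanning the same height) of the 9 fatty acid oxidation genes on each array, by genotype. Marker shapes give the replicate number, horizontal lines the mean and error bars the SD (n = 4). Ppara is lower on every KO array (1.85 to 2.21) than on every HZ array (2.29 to 2.49) and Etfdh higher (2.12 to 2.37 against 1.95 to 2.10), while the other panels overlap.

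Ppara, the transcription factor of the set, was lower on all KO arrays. Its brighter probe read 2.49, 2.29, 2.35 and 2.47 on HZ replicates 1 to 4 and 2.21, 2.12, 2.17 and 1.85 on KO replicates 1 to 4. The HZ arrays lay close together, and KO replicate 4 was the lowest of the 8. The group means were 2.40 ± 0.096 (SD, n = 4) in HZ and 2.09 ± 0.17 (SD, n = 4) in KO, a difference of -0.31 (standard error 0.11, 95% interval -0.56 to -0.066) or a KO to HZ ratio of 0.806. The limma adjusted p was 0.530, so the difference did not pass over all probes. Within the 4 replicate numbers the difference was -0.28, -0.17, -0.17 and -0.62. Over 18 alternatives it stayed below 0 and lay between -0.35 and -0.23, the smallest without KO replicate 4.

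A second, dimmer Ppara probe gave the same direction. It read 0.49, 0.52, 0.58 and 0.34 in HZ and 0.080, 0.33, 0.23 and 0.32 in KO. The groups did not overlap here either, although HZ replicate 4, at 0.34, and KO replicate 2, at 0.33, nearly met. The difference was -0.24 (standard error 0.094, limma adjusted p = 0.583), and it was lower in KO in 4 of 4 replicate numbers. The array that was lowest differed between the probes, KO replicate 4 for the brighter and KO replicate 1 for the dimmer.

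Signals of another cell type moved together with the genotype labels and, at both ends of the array order, with the brighter Ppara probe. Of 22 RPE markers, 18 were tested and 18 of 18 were lower in KO, with a median difference of -1.29. Their summed signal, in units of the array's 75th percentile, was 17.1 to 44.4 in HZ and 8.53 to 15.8 in KO. The brightest probes weigh most in such a sum. Only Cldn19 was not well above background on any array. The mean deviation of these markers was 1.27, 0.080, 0.73 and 0.69 on HZ replicates 1 to 4 and -0.17, -0.79, -0.40 and -1.41 on KO replicates 1 to 4. HZ replicate 1 was thus highest and KO replicate 4 lowest both for the RPE markers and for the brighter Ppara probe, and HZ replicate 2 was the lowest HZ array for both. In contrast, 12 of 12 microglia markers were higher in KO (median 0.78), with a summed signal of 3.01 to 7.03 in HZ and 4.93 to 8.83 in KO. Lower were 12 of 16 rod markers (median -0.10), with a summed signal of 1320 to 1643 in HZ and 1284 to 1484 in KO. Also lower were 7 of 8 bipolar markers (median -0.35) and 7 of 10 Muller glia markers (median -0.20). Higher were 9 of 10 cone markers (median 0.24) and 2 of 2 tested red blood cell markers of 6 listed (median 1.61). The mean deviation of the cone markers had no steady direction. It differed by 0.72, -0.24, -0.60 and 0.97 within replicate numbers 1 to 4. Vascular markers were lower in 3 of 6, and amacrine and ganglion markers in 2 of 4. By mean deviation, HZ and KO arrays overlapped for every one of these marker lists except the RPE list. The part of these cells in the Ppara difference was not tested, and in such bulk samples fewer cells of a type and less RNA per cell cannot be told apart.

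Among 13341 named genes that were well above background on all arrays, those whose signal followed the brighter Ppara probe most closely over the 8 arrays were Bace2, Mettl7a2 and Clic6, with Pearson's r of 0.981, 0.977 and 0.977. These arrays include both genotypes, so the coefficients carry the difference between them, and they are a description only. All 3 genes differed by more than Ppara itself, by -2.04, -1.29 and -2.14, and Clic6 was in the RPE marker list.

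Etfdh, which hands the electrons of FA oxidation to the respiratory chain, was higher on all KO arrays. Its single probe read 2.02, 2.05, 2.10 and 1.95 on HZ replicates 1 to 4 and 2.12, 2.31, 2.16 and 2.37 on KO replicates 1 to 4. The gap between the groups was small, 2.10 on the highest HZ array against 2.12 on the lowest KO array. The means were 2.03 ± 0.064 (SD, n = 4) and 2.24 ± 0.12 (SD, n = 4), a difference of 0.21 (standard error 0.089, 95% interval 0.0060 to 0.41) or a ratio of 1.16. The limma adjusted p was 0.601, the unadjusted p was 0.0449 (0.0742 in the blocked fit), and the KO array was higher in 4 of 4 replicate numbers, by 0.055 to 0.42. With normexp, a background correction that models signal and noise together, the difference was 0.013.

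The promoters of these 2 genes are shown because they are the ones whose arrays did not overlap. They are RefSeq sequences of GRCm38.p6, the 250 bases before the annotated start on the gene's own strand, at chr15:85735526-85735775 (plus strand) for Ppara and chr3:79628768-79629017 (minus strand) for Etfdh. Capitals mark matches to the motifs searched on either strand.
Ppara: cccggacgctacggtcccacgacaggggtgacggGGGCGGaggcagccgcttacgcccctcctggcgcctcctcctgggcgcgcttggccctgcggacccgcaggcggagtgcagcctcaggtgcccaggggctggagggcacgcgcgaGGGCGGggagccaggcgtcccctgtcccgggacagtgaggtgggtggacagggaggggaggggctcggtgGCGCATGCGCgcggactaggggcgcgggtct
Etfdh: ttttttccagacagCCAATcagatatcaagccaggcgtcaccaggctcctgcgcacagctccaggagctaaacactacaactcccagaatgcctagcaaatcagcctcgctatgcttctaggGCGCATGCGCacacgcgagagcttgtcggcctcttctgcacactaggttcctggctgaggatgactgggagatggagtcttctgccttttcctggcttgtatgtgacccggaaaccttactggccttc

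Both windows held the NRF1 motif, GCGCA and GCGC with any 1 base between them, in the form GCGCATGCGC, beginning 31 bases before the start in Ppara and 128 bases before it in Etfdh. NRF1 is a transcription factor known for nuclear genes of mitochondria. The motif was in 2 of the 9 windows and in 3.74% of 32851 windows of the same length. Ppara also held the Sp1 letters GGGCGG, present in 6 of 9 windows and 32.7% of all, and Etfdh the CCAAT letters, present in 2 of 9 and 33.8% of all. Hadha and Hadhb are both among the 6, but their windows overlap and share a site. The 9 windows were 49.6% (Acadvl) to 76.4% (Ppara) G or C, beside a median of 52.4% over all windows. The direct repeat that PPAR-alpha binds with its partner RXR, here 2 copies of AGGTCA with any 1 base between them, was in 0 of 9 windows and 0.0335% of all, and a single AGGTCA, which by its letters lies inside the repeat and inside the ERR motif TCAAGGTCA, was in those of Cpt1a, Acadm and Acadvl (14.0% of all). TCAAGGTCA and the cyclic AMP response element TGACGTCA were in 0 of 9 (0.387% and 1.55% of all), and the ETS motif CCGGAAGT was in that of Cpt2 (2.88% of all). A match describes the letters only, and the absence of one says only that the letters are not in this window.

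In the carnitine shuttle, Cpt1a and Cpt2 overlapped between the genotypes. Cpt1a, which encodes the liver-type CPT1 and controls the entry of long chains, read 4.66, 4.33, 4.45 and 4.80 in HZ and 4.64, 4.41, 4.58 and 4.71 in KO. The spread lay between replicate numbers rather than genotypes, since replicate 2 was lowest and replicate 4 highest in both groups. The difference was 0.025 (standard error 0.13, 95% interval -0.26 to 0.31), and KO was higher in 2 of 4 replicate numbers. It was -0.017 without KO replicate 4, -0.052 without HZ replicate 2 and -0.012 without HZ replicate 3.

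Cpt2 differed by 0.097 (standard error 0.076, limma adjusted p = 0.745), with HZ at 2.77, 2.91, 2.75 and 2.79 and KO at 2.90, 2.91, 2.84 and 2.95. KO was higher in 4 of 4 replicate numbers, by 0.0090 to 0.16. A dimmer Cpt2 probe gave a larger value, 0.34 (standard error 0.15, limma adjusted p = 0.616), with HZ at -2.71, -2.59, -3.22 and -3.11 and KO at -2.47, -2.53, -2.62 and -2.65. On this probe the low HZ arrays were replicates 3 and 4, while the KO arrays lay between -2.65 and -2.47. The probes therefore shared a direction and not a size.

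The acyl-CoA dehydrogenases overlapped as well. Acadvl read 5.73, 5.56, 5.54 and 5.93 in HZ and 5.80, 5.57, 5.62 and 5.98 in KO. As for Cpt1a, replicate 4 was highest in both groups, and the signal ranged over 0.39 between replicate numbers but the KO minus HZ difference only from 0.016 to 0.081 within them. The difference was 0.056 (standard error 0.13), and 0.056 with a standard error of 0.069 once the replicate number entered the fit as a block, with adjusted p of 0.909 and 0.728. It was -0.022 when KO replicate 4 was left out and -0.20 with normexp.

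Acadl, which encodes the dehydrogenase of long chains, read -0.44, -0.79, -0.81 and -0.68 in HZ and -0.48, -0.58, -0.69 and -0.64 in KO. Replicate 1 was highest in both groups, and the difference was 0.084 (standard error 0.11, 95% interval -0.16 to 0.33). Without HZ replicate 1 it was 0.16 and without HZ replicate 3 it was 0.040. Acadm, for medium chains, read 3.33, 3.25, 3.24 and 3.26 in HZ and 3.38, 3.19, 3.44 and 3.42 in KO. KO replicate 2 was the lowest of the 8 arrays and the other KO arrays lay above all HZ arrays. The Acadm difference was 0.087 (standard error 0.085, 95% interval -0.11 to 0.28), and 0.14 without KO replicate 2.

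Hadha and Hadhb encode the subunits of one protein and lie head to head, with 272 bases between their annotated starts. Their upstream windows shared 228 bases, and the 250 bases before the Hadhb start at chr5:30155003-30155252 of GRCm38.p6 (plus strand) are shown because they cover the region between the genes except the bases next to the Hadha start. Capitals mark GGGCGG, the only one of the motifs searched that was found.
Hadhb: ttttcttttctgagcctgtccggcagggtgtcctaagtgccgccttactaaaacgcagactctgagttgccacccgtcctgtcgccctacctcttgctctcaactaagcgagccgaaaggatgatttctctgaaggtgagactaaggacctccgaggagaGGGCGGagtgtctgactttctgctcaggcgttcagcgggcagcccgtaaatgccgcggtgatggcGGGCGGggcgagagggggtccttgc

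Hadha read 0.84, 0.97, 0.78 and 0.94 in HZ and 0.92, 0.94, 0.96 and 1.25 in KO. KO replicate 4 stood far above the other 3 KO arrays, which lay inside the HZ range. The difference was 0.14 (standard error 0.10, 95% interval -0.096 to 0.37), and 0.060 without KO replicate 4. Hadhb read 3.73, 3.81, 3.70 and 3.64 in HZ and 3.67, 3.68, 3.68 and 3.72 in KO, with the KO arrays inside the HZ range. Its difference was -0.033 (standard error 0.074, 95% interval -0.20 to 0.14), and a dimmer probe gave 0.030 (standard error 0.096). Within the replicate numbers Hadha differed by 0.084, -0.025, 0.18 and 0.31 and Hadhb by -0.063, -0.13, -0.020 and 0.079. Replicate 4 thus had the highest difference for both genes and replicate 2 the lowest.

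**Figure D2:**
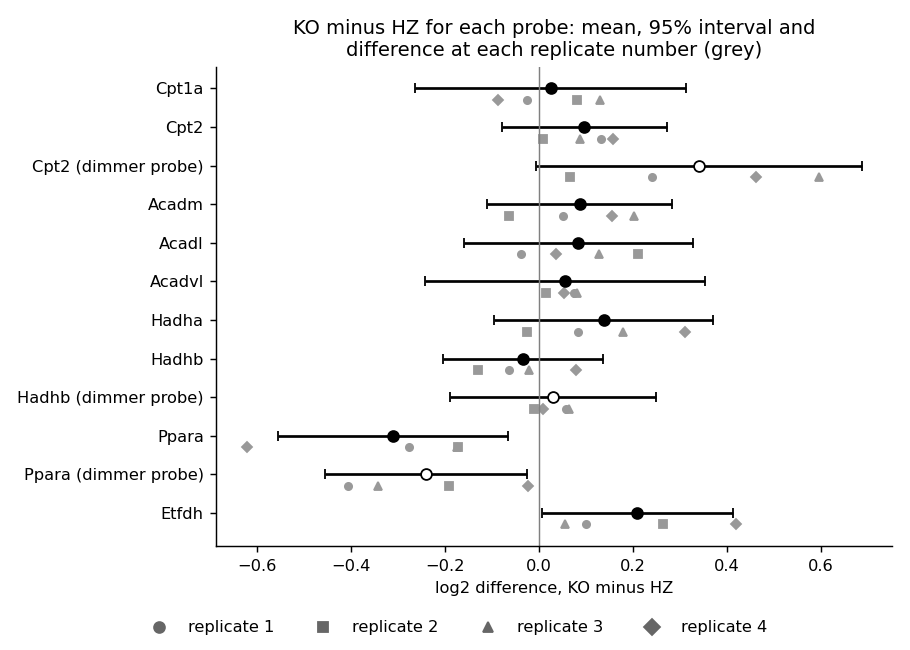
Log2 difference, KO minus HZ (horizontal axis), for each of the 12 probes of the 9 genes. Black points and bars are the limma difference and its 95% interval, open points mark the dimmer probe of a gene, and grey shapes are the differences at each replicate number. The intervals of both Ppara probes lie below 0 and that of Etfdh above 0 (0.0060 to 0.41), the other 9 include 0, and the values of Cpt1a, Acadvl and Hadhb changed sign under another scaling or background correction.

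The other genes of the pathway were taken from 5 lists. Of 75 tested genes, 48 were higher and 27 lower in KO, where 56.8% of all tested genes were higher. Their median difference was 0.054. At a fold over 1.2 and an adjusted p under 0.05, 0 of 75 were called, and the unadjusted limma p was under 0.05 for 5 of 75, where 9.31% of all tested genes had such a p. At a fold over 1.5 and an adjusted p under 0.5, 0 of 75 were called, against 1.46% of all tested genes. With the replicate number as a block 1 of 75 was called, Acsl3, while over all probes the block gave 909 lower and 253 higher, against 278 and 78 without it. HZ and KO arrays did not overlap for 1 of 13 carnitine shuttle and synthetase genes, 2 of 13 peroxisomal genes and 2 of 20 regulators. For the other mitochondrial enzymes this count was 0 of 19 and for PPAR-alpha targets 0 of 10, beside 8% of all tested genes.

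Of 19 genes listed as other enzymes of mitochondrial β-oxidation, 16 were higher in KO and 3 lower, where 56.8% of all tested genes were higher. The list also takes in enzymes of amino acid breakdown, such as Acad8, Ivd, Acadsb and Gcdh. These counts are therefore not of FA oxidation alone. The median was 0.12 beside 0.029 over all tested genes, and 0 of 19 had an unadjusted limma p under 0.05. Their differences ran only from -0.096 to 0.24. The largest were those of Acad11 (0.24, standard error 0.13, and 0.15 without KO replicate 4), Acad8 (0.21, standard error 0.11), which acts in valine breakdown, and Ech1 (0.17, standard error 0.11, and 0.088 without HZ replicate 4), which helps to oxidize unsaturated chains. A dimmer Acad11 probe went the other way, by -0.22. Of 13 tested peroxisomal genes, 7 were higher and 6 lower, with a median of 0.021. Scp2, which encodes a sterol carrier and a peroxisomal thiolase, was higher by 0.28 (standard error 0.096, limma adjusted p = 0.524), with no overlap between the groups. Crot, which makes carnitine esters in peroxisomes, differed by 0.25 (standard error 0.28), but by 0.064 with normexp. Leaving out an array moved it to 0.058 for KO replicate 2, 0.11 for HZ replicate 4, 0.40 for HZ replicate 2 and 0.47 for KO replicate 4. Acox3, an oxidase of branched chains, did not overlap, though by a narrow gap, with a difference of -0.19 and a standard error of 0.12 (limma, adjusted p = 0.698), while its other probes ran from -0.36 to 0.074. Without KO replicate 4 it was -0.081.

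Among 13 genes of the carnitine shuttle and acyl-CoA synthetases, 6 were higher and 7 lower, with a median of -0.028. Acsl3, which activates long chains for lipid synthesis and droplets, was at 0.45, 0.88, 0.60 and -0.34 in HZ and -0.20, -0.22, -0.21 and -0.68 in KO. HZ replicate 4 lay below 3 of the KO arrays, so the groups overlapped, yet KO was lower in 4 of 4 replicate numbers. The difference was -0.73 (standard error 0.25, limma adjusted p = 0.532), and -0.23 for a dimmer probe. With the replicate number as a block its adjusted p was 0.319, and without HZ replicate 4 the difference was -0.97 with an adjusted p of 0.362, both past the looser thresholds. Crat, for short-chain carnitine esters, differed by 0.34 (standard error 0.17) and Slc27a4, a fatty acid transporter, by -0.23 (standard error 0.12). With normexp these values were 0.018 and -0.041, and Slc27a4 was -0.12 after quantile normalization.

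Of 20 tested regulators, 14 were higher and 6 lower, with a median of 0.048. Acaca encodes acetyl-CoA carboxylase 1, whose product malonyl-CoA is a building block of fatty acids and an inhibitor of CPT1. It read 3.98, 4.09, 3.99 and 4.31 in HZ and 4.63, 4.51, 4.50 and 4.86 in KO, with every KO array above every HZ array. The difference was 0.53 (standard error 0.12, limma adjusted p = 0.363), a ratio of 1.45. All 4 Acaca probes were higher in KO, by 0.24 to 0.62, and over 17 alternatives the difference lay between 0.37 and 0.61. Rxra, which encodes a partner of PPAR-alpha, did not overlap either and was higher by 0.30 (standard error 0.096, limma adjusted p = 0.498) and 0.33 for a dimmer probe, but -0.0058 with normexp. Ppargc1b, a coactivator of mitochondrial genes, differed by -0.31 (standard error 0.15), by -0.054 with normexp and by -0.17 without KO replicate 2.

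**Figure D3:**
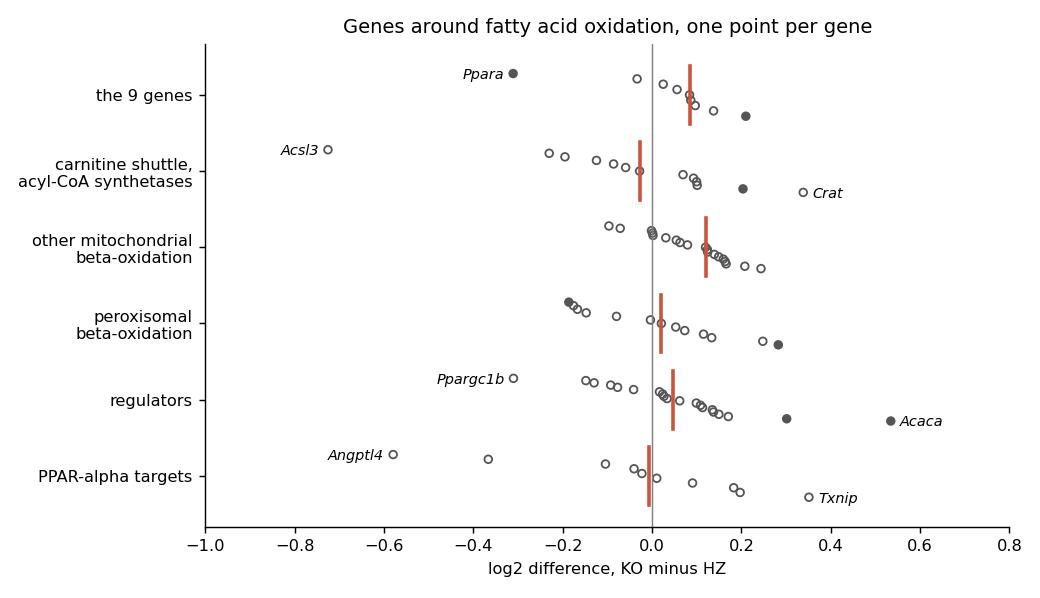
Log2 difference, KO minus HZ (horizontal axis), for the 9 genes and for 5 lists of other genes around fatty acid oxidation, one point per tested gene. Filled points are genes whose HZ and KO arrays did not overlap, and red lines are medians, which lie between -0.028 and 0.12. Acsl3 lies farthest from 0, at -0.73, and Acaca is highest, at 0.53.

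Of 18 other known target genes of PPAR-alpha, 10 were tested, with 5 higher and 5 lower and a median of -0.0060. Pdk4, Cd36, Cyp4a14, Vnn1 and Fgf21 were not well above background on any array. Angptl4, a secreted inhibitor of lipoprotein lipase, read -1.85, -2.29, -1.80 and -1.71 in HZ and -2.65, -2.66, -2.60 and -2.06 in KO. KO replicate 4 lay above HZ replicate 2, so the groups overlapped, and the other KO arrays lay below all HZ arrays. The difference was -0.58 (standard error 0.18, limma adjusted p = 0.489), with KO lower in 4 of 4 replicate numbers. It passed a fold over 1.5 and an adjusted p under 0.5 without HZ replicate 2 (-0.71, adjusted p = 0.272) and with the percentile of probes bright on every array (-0.61, adjusted p = 0.497). Fabp3, a fatty acid binding protein, differed by -0.37 (standard error 0.28), or 0.018 on a dimmer probe. Its differences within the replicate numbers were 0.34, -0.22, -0.044 and -1.54, so that replicate 4 set the mean, and without KO replicate 4 it was -0.080. Txnip, an inhibitor of glucose uptake, differed by 0.35 (standard error 0.31), and by 0.44 on its other probe. The first of these was 0.11 once HZ replicate 4 was left out, 0.18 for KO replicate 2 and 0.54 for HZ replicate 2.

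The RPE markers had the same highest and lowest array as the brighter Ppara probe. They differed within the replicate numbers by -1.44, -0.87, -1.13 and -2.09. Replicate 4 had the widest difference for both the markers and the brighter Ppara probe. This was not particular to them. By the brighter or single probe, replicate 4 was also widest for Etfdh (0.42), Hadha (0.31) and Cpt2 (0.16). It was not for Cpt1a, Acadm, Acadl, Acadvl or Hadhb. The dimmer Ppara probe had its narrowest difference at replicate 4, -0.024, and did not share the highest and lowest arrays of the brighter one. It was highest on HZ replicate 3 and lowest on KO replicate 1. KO replicate 4 was also the lowest array for the mean deviation of Muller glia (-0.35), bipolar (-0.38), and amacrine and ganglion markers (-0.75). It was not the lowest for rod, cone, microglia, vascular or red blood cell markers.

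**Figure D4:**
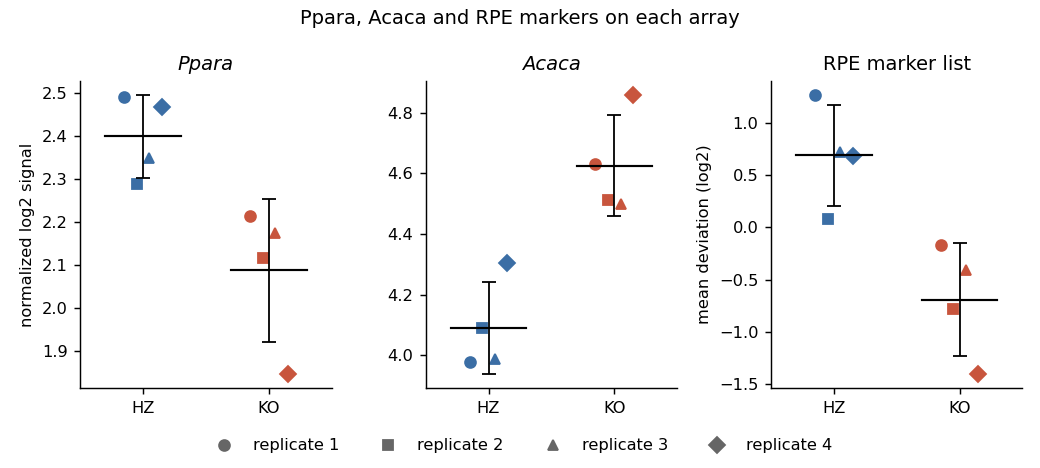
Normalized log2 signal of Ppara and Acaca, and the mean log2 deviation of 18 tested RPE markers from their own means, on each array by genotype. Marker shapes give the replicate number, horizontal lines the mean and error bars the SD (n = 4). HZ replicate 1 is highest and KO replicate 4 lowest for the brighter Ppara probe, shown here, and for the RPE markers. For Acaca HZ replicate 1 is lowest and KO replicate 4 highest.

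Across the 9 genes, the average array stood between -0.084 and 0.031 of the gene means in HZ and between -0.032 and 0.084 in KO, so that the group ranges overlapped. Within the replicate numbers this mean was higher in KO in 4 of 4, by 0.0043, 0.021, 0.075 and 0.056. KO replicate 4 was the highest array for 4 of the 9 genes and HZ replicate 3 the lowest for 4. Among 13333 named genes well above background on all arrays, Rhpn1, Gnat1 and H3c13 followed the mean of the 9 genes most closely over the 8 arrays, with Pearson's r of 0.986, 0.981 and 0.979. Gnat1 encodes rod transducin. It was higher in KO by 0.36, unlike most rod markers, of which 12 of 16 were lower.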

How the data were processed

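Total RNA was labelled with Cy3, hybridized to SurePrint G3 mouse arrays and scanned. The authors deposited scanner files whose intensity per spot Agilent Feature Extraction 10.7.1.1 had already corrected for background. They also deposited log2 values, shifted by the 75th percentile in GeneSpring and centred on each probe's median, which served as an alternative. From the intensities, log2 signal minus the array's 75th percentile was computed over 59305 spots that were not controls. Spots marked as outliers were dropped, and repeated spots of 1 probe were averaged. The test took probes with a well-above-background mark on 4 or more arrays and 3 or more values in each group. RefSeq accessions (GRCm38.p6 table, names only) named 32994 of 56605 probes, and the probe with the highest mean stands for a gene. The array's 75th percentile was 882 to 1024 intensity units, 59.5% to 63.8% of probes were well above background, and 0 spots were saturated. The number of arrays limits the precision.

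The genotype comparison used two-sided tests from limma 3.58.1 (lmFit, eBayes) under R 4.3.3. The same fitting code was afterwards run on simulated data. The differences planted there were larger than those of the 9 genes, so that run does not bear on differences of their size. The normexp alternative used the median spot and background signals. Nothing says whether arrays came from separate animals, so p-values measure the spread between arrays. The methods give both pairs of thresholds. The alternatives were those of the closing section. Named are the 9 genes, Lpcat1, the 3 genes of each list with the largest difference, and the 3 genes most like a pattern. Of the listed genes, 2 are not reported here and the list counts leave them out. The genes and lists were chosen with earlier results of these data known. After removal of the group means, arrays of the same replicate number had a correlation of 0.165 to 0.337, above 0.1 in 4 of 4 pairs. Arrays of different numbers had -0.339 to 0.119, the highest of which also passed 0.1. Arrays sharing a number, which is the slide column, were therefore more alike, and whether the number pairs animals is not known. The main fit leaves the number out, and the replicate block puts it in. Plots used matplotlib 3.10.9.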

Additional observations from a re-analysis of the deposited data

Results flagged for a closer look

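In 56 groups of 4 arrays, 4 held an array far from the other 3, and in 3 of these it was KO replicate 4. About 2.8 would be expected for independent groups. The groups share the same arrays, and many of their genes were named for large differences, so that number is only a rough guide. Hadha was at 1.25 on KO replicate 4 and at 0.92 to 0.96 on the other KO arrays. Acsl3 was at -0.68 there and at -0.22 to -0.20 on the others. Angptl4 was at -2.06 there and at -2.66 to -2.60 on the others.
Acox3 was at 1.29 on HZ replicate 2 and at 1.21 to 1.22 on the other HZ arrays.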

How the results depend on the processing

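Tried were quantile normalization, normexp, a percentile of the probes bright on every array, dropping the filter on dim probes or asking for all 8 arrays, eBayes with trend and robust settings, the methods' t-test, the replicate block, the authors' processed values, leaving out each array and, for the 9 genes, the mean of all tested probes of a gene. Across these, 0 of the 9 genes were called at either pair of thresholds, and Cpt2, Acadm, Acadl, Hadha, Ppara and Etfdh kept their direction. The sign changed for Acadvl with normexp (-0.20), quantile normalization (-0.013) and without KO replicate 4 (-0.022). With arrays left out, Acadvl ranged from -0.022 to 0.14, Cpt1a from -0.052 to 0.10 and Lpcat1 from -0.097 to 0.022. It changed for Cpt1a with quantile normalization (-0.040), the percentile of bright probes (-0.0056), and with HZ replicate 2 (-0.052), HZ replicate 3 (-0.012) or KO replicate 4 (-0.017) left out. It changed for Hadhb (0.084), Rxra (-0.0058) and Lpcat1 (0.0049) with normexp, and for Lpcat1 without HZ replicate 1 (0.022) or KO replicate 2 (0.0095). The cause was not tested. Of the 9 genes, 4 were lower with quantile normalization, and 2 to 4 with arrays left out.

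Of the other pathway genes, 1 was called at a fold over 1.5 and an adjusted p under 0.5 with the percentile of bright probes, trend and robust eBayes, normexp, the stricter filter or the replicate block. With arrays left out 0 to 2 were, 2 without HZ replicate 4 (Acsl3 and Acaca) and 1 without HZ replicate 2 (Angptl4). Over all probes at these thresholds, 177 were lower with quantile normalization, 32 lower and 9 higher without a filter, and 909 lower and 253 higher with the replicate block. With arrays left out, 0 to 1359 were lower and 0 to 371 higher, both highest without HZ replicate 2 and both 0 if HZ replicate 3 or either of KO replicates 3 and 4 was dropped. At a fold over 1.2 and an adjusted p under 0.05, normexp called 13 lower and 4 higher, trend and robust eBayes 2 lower and 1 higher, quantile normalization 1 lower and 1 higher, and the t-test 2 higher. The replicate block changed no call of the 9 genes at these thresholds, and at an unadjusted p under 0.05 it took them from 2 to 1.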
